A study of Mus musculus with 8 samples.

Results

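The genes of the membrane carriers for sugars, amino acids, peptides and monocarboxylates were followed in IEC10, a mouse line of immortalized epithelial cells of the intestine, after stimulation with type III or type I interferon (IFN). Probes were chosen by their gene name alone: every non-control probe named as a member of the Slc1, Slc2, Slc3, Slc5, Slc6, Slc7, Slc15, Slc16, Slc36 or Slc38 family was taken, irrespective of its signal. The rule gave 135 of the 39429 non-control probes of the array, for 103 of 31791 gene names. One of these names, Slc7a6os, belongs to a gene on the opposite strand of Slc7a6 and not to a carrier.

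According to the methods, the line comes from a transgenic mouse with a luciferase reporter of the Mx2 promoter, which all groups therefore share, and all cultures were grown for 21 days on transwell inserts before use. The control cells were left untreated (2 arrays, replicates 2 and 3), the second group received 20 ng/mL IFN-λ2 (3 arrays) and the third group 500 U/mL IFN-β (3 arrays), each for 9 h. A replicate 1 of the control group was not analysed here. The labels do not say whether replicates came from separate cultures, so that p-values measure the spread between these arrays, which may be technical. The line is a single model of the epithelium, and the arrays measure RNA of the whole culture, where fewer expressing cells and less RNA per cell cannot be told apart.

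Carriers of the solute carrier (Slc) families move nutrients across the apical and basolateral membranes of enterocytes. Sodium- or proton-coupled carriers such as Slc5a1 for glucose, Slc6a19 for neutral amino acids and Slc15a1 for peptides take up the products of digestion at the brush border, while facilitative carriers and exchangers such as Slc2a2, Slc7a7 and Slc7a8 release them to the blood side. The light chains Slc7a5 to Slc7a11 reach the membrane only in a disulfide-linked pair with a heavy chain, Slc3a2 (CD98) or Slc3a1. Several amino acid carriers are textbook targets of the amino acid response, in which the transcription factor Atf4 binds composite elements in the promoters of genes for amino acid supply. Slc15a3, Slc15a4, Slc38a9 and Slc36a1 sit in the membrane of lysosomes and endosomes, where Slc15a4 serves signalling by endosomal Toll-like receptors.

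Stimulation and identity of the cells were checked on genes outside the carrier families. All 10 probes of 9 classical IFN-stimulated genes were at least 2-fold higher in both stimulated groups (limma, adjusted p under 0.05), with a median log2 difference of 4.03 for IFN-λ2 and 3.77 for IFN-β over control. Of 12 epithelial markers, 10 were well above background on all 8 arrays and Cdx2 on none, with a summed signal of 399029 to 400046 units in controls, 489702 to 515705 with IFN-λ2 and 415654 to 450563 with IFN-β. Of 8 fibroblast markers, none was well above background on all arrays (summed signal 139 to 188 units over all groups), and of 4 endothelial markers Kdr alone was (summed signal of the list 924 to 1379 units). Of 6 leukocyte markers, Itgam, Cd68 and Cd3e were, with sums of 6222 to 8692, 2438 to 4056 and 3158 to 11131 units in the control, IFN-λ2 and IFN-β groups. The part of these markers in the carrier results was not tested. The array of IFN-λ2 replicate 2 had the highest signal of negative controls (median 8.07 units, against 3.31 to 6.49 on the others) and the fewest probes well above background (20925, against 21644 to 24250), so that counts are also given without it.

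Promoter sequences of the carriers were read from RefSeq (build GRCm38.p6), which held at least 1 start site for 75 of the 103 names, 96 windows in all. The 250 bases before each start were searched on both strands for 3 motifs: GAAANNGAAA, the core of the IFN-stimulated response element, TTCNNNGAA, the palindrome bound by STAT dimers, and TGATGNAA, the core of the C/EBP-ATF composite element of the amino acid response. The first was in 2.98% of all 32851 windows of the table and in none of the 96 carrier windows. The second was in 7.02% of all windows and in 4.17% of carrier windows, those of Slc1a3, Slc38a9, Slc7a1 and Slc7a11. The third was in 3.45% of all windows and in 3.12% of carrier windows, those of Slc7a11 and Slc7a7. A match is no more than these letters in this window, and its absence says nothing about a factor.

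The windows below are shown 5′ to 3′, with the matches in capitals, because they belong to the carriers described in most detail: Slc7a11, the one carrier window with more than 1 of the motifs (chr3:50443614-50443863, minus strand), Slc7a8, the carrier with the largest log2 difference between IFN-λ2 and control (chr14:54781887-54782136, minus strand), Slc6a19 (chr13:73692637-73692886, minus strand) and Slc1a3 (chr15:8710808-8711057, minus strand).
Slc7a11: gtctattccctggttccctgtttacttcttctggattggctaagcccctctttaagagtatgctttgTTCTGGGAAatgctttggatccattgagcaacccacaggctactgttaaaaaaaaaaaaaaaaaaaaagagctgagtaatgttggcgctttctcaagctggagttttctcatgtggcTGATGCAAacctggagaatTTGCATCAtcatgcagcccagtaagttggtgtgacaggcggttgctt
Slc7a8: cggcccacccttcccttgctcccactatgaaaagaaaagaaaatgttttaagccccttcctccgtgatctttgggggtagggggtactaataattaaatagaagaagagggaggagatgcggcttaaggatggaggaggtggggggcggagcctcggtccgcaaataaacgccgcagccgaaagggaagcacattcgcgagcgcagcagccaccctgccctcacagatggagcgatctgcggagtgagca
Slc6a19: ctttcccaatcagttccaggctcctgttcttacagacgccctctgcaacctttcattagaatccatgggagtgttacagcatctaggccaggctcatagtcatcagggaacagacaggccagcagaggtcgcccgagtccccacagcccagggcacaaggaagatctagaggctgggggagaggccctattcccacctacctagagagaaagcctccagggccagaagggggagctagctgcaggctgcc
Slc1a3: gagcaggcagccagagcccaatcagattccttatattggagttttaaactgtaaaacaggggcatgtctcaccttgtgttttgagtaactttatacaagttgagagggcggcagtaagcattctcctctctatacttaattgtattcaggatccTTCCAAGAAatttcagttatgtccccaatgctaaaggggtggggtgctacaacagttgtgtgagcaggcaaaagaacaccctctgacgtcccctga
In Slc7a11, the STAT palindrome TTCTGGGAA lies 183 to 175 bases before the start, and the composite element occurs as TGATGCAA 66 to 59 bases and, in the other orientation, as TTGCATCA 47 to 40 bases before it. In Slc1a3, TTCCAAGAA lies 96 to 88 bases before the start. The windows of Slc7a8 and Slc6a19 held no match.

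Signals are given in normalized gPS units, the scanner's processed intensity scaled so that the 75th percentile of the probes of each array is 1500. A level of one probe is not set against that of another, because probes differ in their binding. Of the 135 carrier probes, 54 were well above background on all 8 arrays, 27 on some arrays and 54 on none, and for 35 of 103 genes no probe was well above background on any array. For several carriers that define the absorptive enterocyte, the signal was not well above background. The probe of Slc5a1, the sodium-glucose cotransporter, lay between 3.59 and 8.59 units on the 8 arrays. Slc3a1, the heavy chain of the apical cystine carrier, reached at most 15.2 units, and its light chain Slc7a9 was well above background on 1 IFN-λ2 array (22.2 units) only. Slc6a14, Slc6a20b, Slc2a3, the neuronal-type glucose carrier, and the lysosomal Slc15a3 were not well above background on any array. Slc15a1, the intestinal peptide carrier, was well above background on 2 arrays, with 28.6 units in 1 control and 86.0 units on 1 IFN-λ2 array, had no accepted value on IFN-β replicate 2, and lay between 3.67 and 8.31 units on the other 5.

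**Figure D1:**
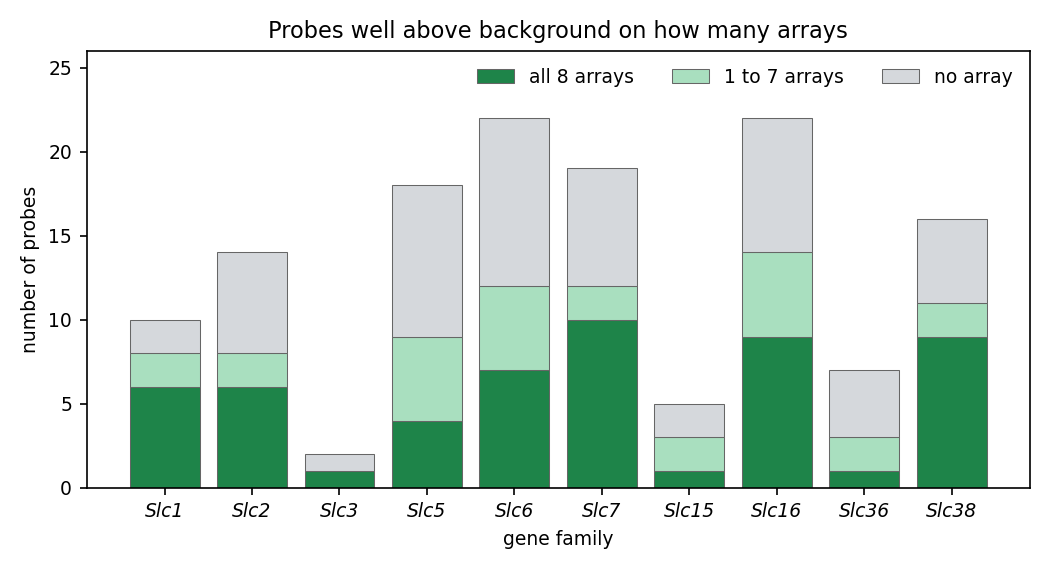
Number of probes (vertical axis) per carrier family (horizontal axis) with a signal well above background on all 8 arrays, on 1 to 7 arrays or on none. Slc7, Slc16 and Slc38 held the most probes with signal on all arrays (10, 9 and 9), and 9 of 18 Slc5 probes had signal on none.

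Above 15 units on at least 2 arrays, and therefore tested, were 83 of the 135 probes, for 68 genes. A probe was called where the Benjamini-Hochberg adjusted p of limma, taken over all 25972 tested probes, was under 0.05, and the calls that also reach 2-fold are given beside it. With IFN-λ2, 13 of 83 carrier probes were higher than control (15.7%, against 10% of all tested probes) and 11 were lower (13.3%, against 8.55%). The higher ones include Slc1a2, which entered the test only through the group where it is high. At 2-fold or more, 2 were higher (2.41%, against 2.67%) and 3 lower (3.61%, against 1.19%). The 3 lower ones, Slc15a2, Slc1a7 and Slc36a4, were not well above background on at least 1 IFN-λ2 array. Against the lowest signal measurable there they were at least 1.92-, 1.68- and 2.01-fold lower. The difference of Slc36a4 was -0.24 with a floor of 50 units and -0.12 with normexp background correction. A fall of 2-fold is therefore not shown for any of them. With IFN-β, no carrier probe was higher than control (against 1.44% of all probes, and 0.882% at 2-fold) and 1 was lower (1.20%, against 0.208%), none of them by 2-fold (against 0.0308%). In this comparison, 16 carrier probes had an unadjusted p under 0.05, and the methods' t-test after the same adjustment called none in either direction.

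The 2 stimulated groups were also compared directly. With IFN-λ2, 11 probes were higher than with IFN-β (13.3%, against 5.53% of all probes) and 6 lower (7.23%, against 5.68%), with 1 each at 2-fold (1.20%, against 1.44% and 0.774%). The lower one, Slc5a11, was not well above background on 2 of 3 IFN-λ2 arrays. Against the lowest signal measurable there it was at least 1.93-fold lower, short of 2-fold. The 11 higher ones include Slc1a2, which entered the test only through the group where it is high. The median log2 difference of the 83 probes was -0.05 for IFN-λ2 over control, -0.02 for IFN-β over control and -0.03 for IFN-λ2 over IFN-β, where the medians of all tested probes were 0.0008, 0.02 and -0.02. The median size of the difference, without its sign, was 0.24, 0.13 and 0.18, against 0.22, 0.12 and 0.16 for all tested probes. The counts by family or list below are to be read beside the shares of all probes given here. The counts for IFN-λ2 over control depended on single arrays: without control replicate 3 there were 4 higher probes, without control replicate 2 or IFN-λ2 replicate 1 there were 3 lower ones, and without IFN-λ2 replicate 2 there were 8 higher and 6 lower. They also moved with the processing: the 13 higher probes became 9 with the replicate number as a block, 7 with normexp background correction, and 2 or 4 by the methods' t-test (unadjusted p under 0.001, or adjusted), and the 11 lower ones became 5, 0, and 0 or 1. Between IFN-λ2 and IFN-β, the 11 higher became 10, 8, and 4 or 8, and the 6 lower became 4, 0, and 1 or 2. By gene, 7 of the 22 genes called in this comparison by their brightest tested probe, and 10 of the 16 called between IFN-λ2 and IFN-β, stayed called whichever array was left out.

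**Figure D2:**
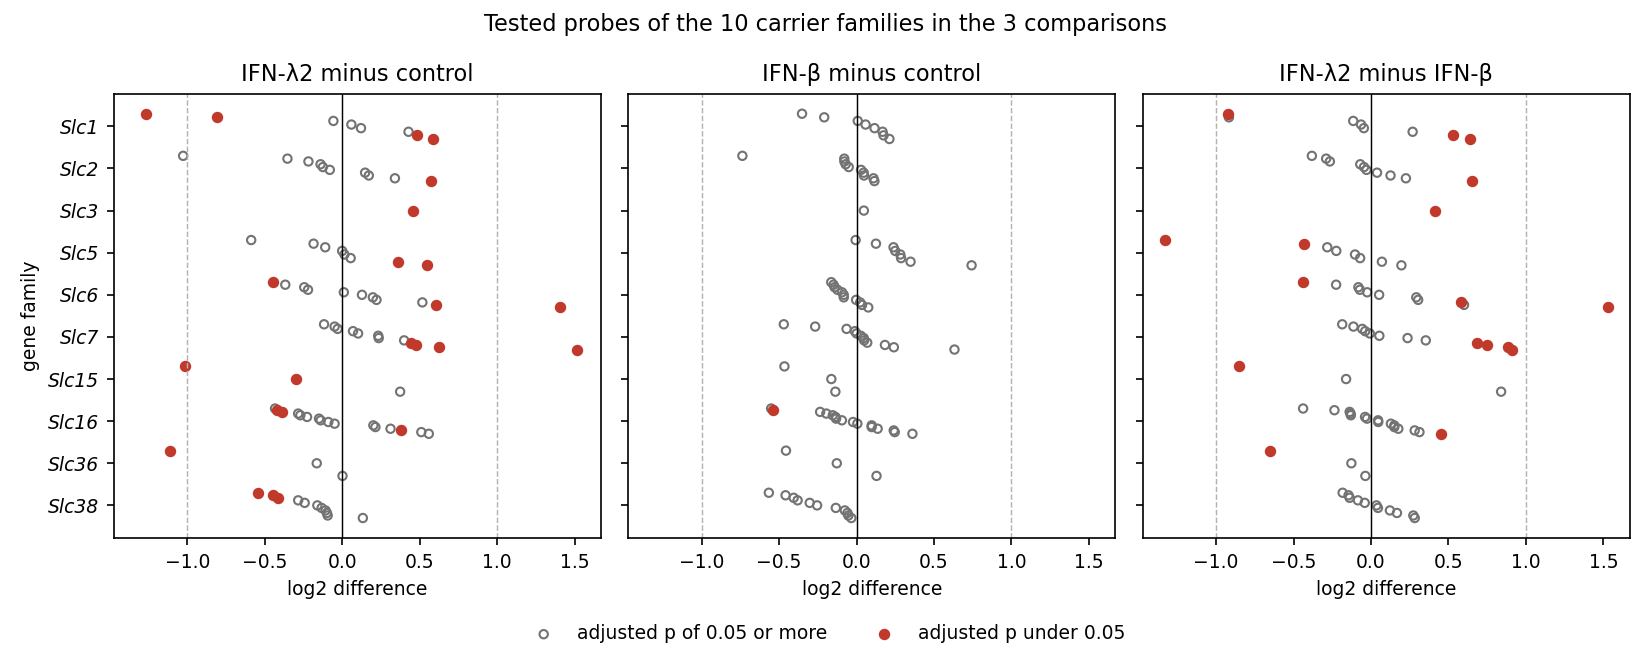
Log2 difference (horizontal axes) of every tested carrier probe by family (vertical axis) in the 3 comparisons. Filled red points have an adjusted p under 0.05, and the dashed lines mark 2-fold. With IFN-λ2 over control the values run from -1.27 to 1.51, with IFN-β over control from -0.74 to 0.74, where 1 point is filled.

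Heavy and light chains of the heteromeric exchangers came first. Of 8 tested probes of this group, 3 were higher with IFN-λ2 than in controls, none lower, and the median log2 difference was 0.23. Slc7a8 (LAT2), the light chain that exchanges neutral amino acids at the basolateral membrane, measured 27.2 and 21.3 units in controls, 78.0, 61.4 and 67.4 units with IFN-λ2, and 36.5, 37.2 and 38.1 units with IFN-β (probe at chr14:55341137-55341196, mm9). The 3 groups did not overlap, with IFN-β between control and IFN-λ2. The log2 difference was 1.51 ± 0.14 (SE, 2.85-fold, adjusted p = 0.000617) for IFN-λ2 over control and 0.88 ± 0.12 (adjusted p = 0.00576) for IFN-λ2 over IFN-β, and both were called whichever array was left out. Both also stayed called in the 11 other alternatives of the limma fit. By the methods' t-test, at its unadjusted threshold of 0.001 or after adjustment, the difference over control did not pass. Its size depended on the dim controls: with a floor of 50 units, which lies above both, or with normexp background correction, it was under 2-fold. IFN-β over control gave 0.63 (95% confidence interval 0.31 to 0.95, adjusted p = 0.0986).

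Slc3a2, the heavy chain that carries Slc7a5 to Slc7a8 and Slc7a11 to the surface, measured 54090 and 52021 units in controls, 71653, 76067 and 71010 with IFN-λ2, and 55696, 56990 and 51862 with IFN-β (chr19:8782189-8782248). The IFN-λ2 arrays lay above all others, and controls and IFN-β overlapped. The log2 difference was 0.46 ± 0.07 (1.37-fold, adjusted p = 0.00739) over control and 0.41 ± 0.07 (adjusted p = 0.0104) over IFN-β, and both calls stayed in every fit that left out 1 array. The call over control was lost with quantile normalization (0.31, adjusted p = 0.0571) and both were lost with normexp background correction (0.0560 and 0.0771).

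Slc7a11 (xCT), the light chain that exports glutamate for cystine and so feeds glutathione synthesis, moved apart between both interferons. Its signal was 270 and 283 units in controls, 372, 382 and 374 with IFN-λ2, and 232, 190 and 181 with IFN-β (chr3:50169700-50169759). The groups did not overlap, and here the control lay between IFN-λ2 and IFN-β. IFN-λ2 over IFN-β gave 0.91 ± 0.10 (1.88-fold, adjusted p = 0.00235), called whichever array was left out. IFN-λ2 over control gave 0.44 ± 0.11 (adjusted p = 0.0345), a call that was lost without any one of control replicates 2 and 3 and IFN-λ2 replicates 1, 2 and 3 (adjusted p up to 0.130) and with the replicate number as a block (0.0857). IFN-β over control gave -0.47 (interval -0.73 to -0.21, adjusted p = 0.131). Its promoter is the one printed above with both composite elements.

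The other light chains were not called. Slc7a5 (LAT1), the carrier of large neutral amino acids, gave 0.23 (interval 0.03 to 0.44) with IFN-λ2 and 0.24 (0.03 to 0.45) with IFN-β over control. Slc7a7, the basolateral exchanger of cationic amino acids, gave -0.03 (-0.22 to 0.16) and 0.03 (-0.16 to 0.22). Slc7a6, its relative, gave -0.12 (-0.42 to 0.19) and 0.07 (-0.24 to 0.38). Slc7a10 and Slc7a13 were not well above background on any array.

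Cationic amino acid carriers came next. Of 4 tested probes of this list, 2 were called higher for IFN-λ2 over control and none for IFN-β. The difference for IFN-λ2 was positive for all 4, but that of Slc7a14 was not well above background on any array, and with no floor 3 were positive. Slc7a3 (CAT-3), a carrier of arginine and lysine, measured 1819 and 1799 units in controls, 2876, 2694 and 2785 with IFN-λ2, and 1662, 1783 and 1745 with IFN-β (chrX:98274644-98274703). The IFN-λ2 arrays stood clear of the 5 others. The log2 difference was 0.62 ± 0.07 over control (1.54-fold, adjusted p = 0.00147) and 0.69 ± 0.06 over IFN-β (1.61-fold, adjusted p = 0.00118), and both calls held in every fit without 1 array.

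Slc7a4, a relative of the cationic carriers whose own transport is not settled, measured 1859 and 1618 units in controls, 2552, 2422 and 2285 with IFN-λ2, and 1360, 1479 and 1488 with IFN-β (chr16:17573049-17573108). As for Slc7a11, the 3 groups were separate and the control lay in between. IFN-λ2 was above IFN-β by 0.75 ± 0.08 (adjusted p = 0.00251) and above control by 0.48 ± 0.09 (adjusted p = 0.0145), the latter lost without control replicate 3 or IFN-λ2 replicate 1 (adjusted p up to 0.0757). A second Slc7a4 probe was not well above background on any array. Slc7a1 (CAT-1), the widely expressed arginine carrier, measured 23819 and 30269 units in controls and 38370, 36563 and 31706 with IFN-λ2, with a difference of 0.40 (0.01 to 0.79, adjusted p = 0.139) that was not called. Slc7a2, the carrier induced in activated macrophages, had no signal well above background. Slc7a3, Slc7a4, Slc7a6, Slc7a14 and, below, Slc1a2, Slc1a3, Slc2a6, Slc2a8, Slc6a13, Slc16a6, Slc16a12 and Slc38a3 were singled out after their values were seen.

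**Figure D3:**
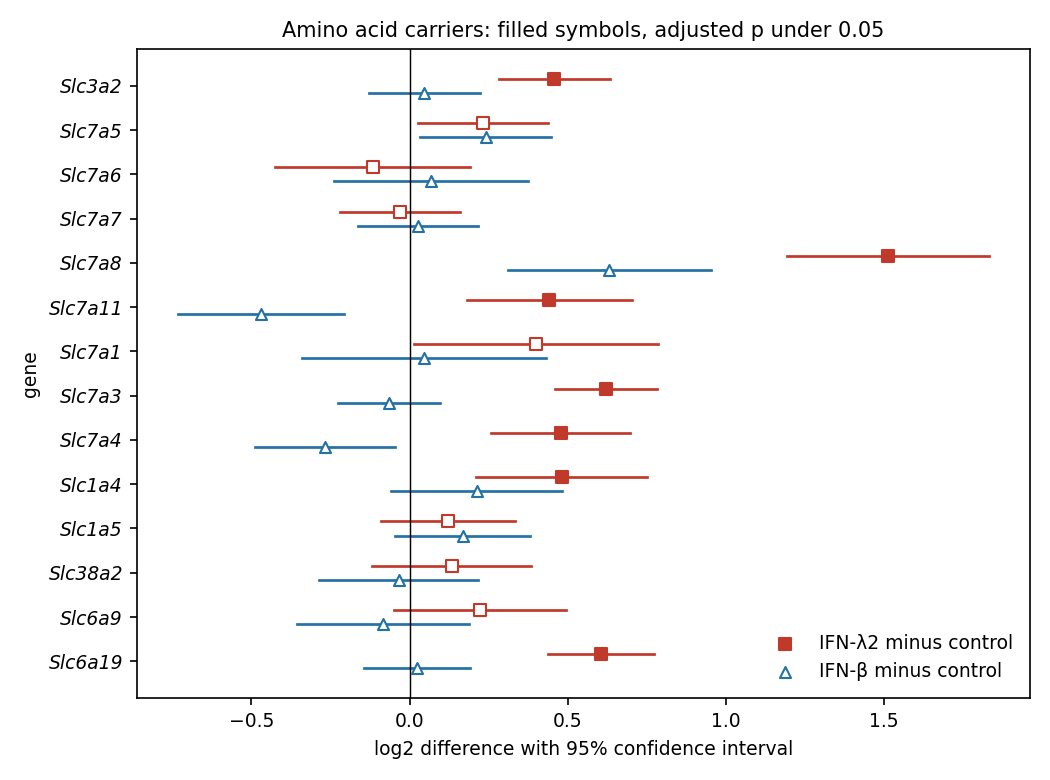
Log2 difference with its 95% confidence interval (horizontal axis) for 14 amino acid carriers (vertical axis), for IFN-λ2 over control (red squares) and IFN-β over control (blue triangles). Filled symbols have an adjusted p under 0.05: Slc3a2, Slc7a8, Slc7a11, Slc7a3, Slc7a4, Slc1a4 and Slc6a19 with IFN-λ2, and none with IFN-β.

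The carriers known as targets of the amino acid response formed a list of 9 genes with 12 probes, all well above background on every array. With IFN-λ2, 11 of the 12 differences over control were above 0 (median 0.23, and between 0.16 and 0.24 under the other scalings), 4 were called higher (Slc3a2, Slc7a11, Slc7a3 and Slc1a4, against 10% of all tested probes) and none lower (against 8.55%). With IFN-β, 7 of 12 were above 0 (median 0.03, or -0.07 with quantile normalization) and none was called (against 1.44% higher and 0.208% lower). The list shares genes with the groups above, and was chosen with results of these data known. Slc1a4 (ASCT1), a carrier of alanine, serine and cysteine, measured 2032 and 1749 units in controls, 2602, 2624 and 2666 with IFN-λ2, and 1939, 2447 and 2193 with IFN-β (chr11:20202615-20202674). IFN-λ2 was above both others on all arrays. The difference over control was 0.48 ± 0.11 (adjusted p = 0.0291), which was lost in 5 of the 8 fits without 1 array (control replicate 3, all 3 of IFN-λ2 and IFN-β replicate 3, adjusted p up to 0.150). Its paralog Slc1a5 (ASCT2), the main glutamine carrier of proliferating cells, gave 0.12 (-0.09 to 0.33) and 0.17 (-0.04 to 0.38) for IFN-λ2 and IFN-β over control. Slc38a2 (SNAT2) gave 0.13 (-0.12 to 0.38) and -0.03 (-0.28 to 0.22). Slc6a9, the glycine carrier GlyT1, gave 0.22 (-0.05 to 0.49) and -0.08 (-0.35 to 0.19). None of these 3 was called.

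Slc1 carriers did not move alike. Of 8 tested Slc1 probes, 2 were called higher with IFN-λ2 than in controls and 2 lower (Slc1a3 and Slc1a7). None was called for IFN-β. The higher ones were Slc1a4, a neutral amino acid carrier, and Slc1a2, whose call gives no support, as set out below. Among glutamate carriers, no other was called higher than control. Slc1a3 (GLAST), a high-affinity glutamate and aspartate carrier, measured 238 and 286 units in controls, 133, 149 and 167 with IFN-λ2, and 261, 288 and 302 with IFN-β (chr15:8584236-8584295). The IFN-λ2 arrays lay below all others, and IFN-β and control overlapped. The log2 difference was -0.81 ± 0.13 over control (1.75-fold lower, adjusted p = 0.00714) and -0.92 ± 0.12 over IFN-β (1.89-fold, adjusted p = 0.00408), called in every fit without 1 array, and not called with normexp background correction.

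Slc1a1 (EAAC1), the epithelial glutamate carrier of the apical membrane, was called higher with IFN-λ2 against IFN-β only. It measured 296 and 355 units in controls, 449, 466 and 398 with IFN-λ2, and 280, 306 and 258 with IFN-β (chr19:28988332-28988391). IFN-λ2 was above IFN-β by 0.64 ± 0.11 (1.56-fold, adjusted p = 0.0123, and 0.0550 without IFN-λ2 replicate 1), while the difference over control, 0.43 (0.14 to 0.72), had an adjusted p of 0.0511. Slc1a7, a glutamate carrier of the retina, measured 47.0 and 27.8 units in controls, at most 12.5 with IFN-λ2, and 32.1, 19.8 and 35.7 with IFN-β. With IFN-λ2 it was not well above background on any array. Its signal was therefore at least 1.68-fold lower than in controls (adjusted p = 0.0269). That call was lost without control replicate 2 or any IFN-λ2 array, and with the block (0.0800). It was also lost with no filter on dim probes, a floor of 50 units or normexp, where the difference was -0.08. Slc1a2 (GLT-1) was not well above background in controls (8.65 and 7.89 units), was so on 2 of 3 IFN-λ2 arrays (26.3, 20.6 and 21.3 units), and measured 5.53, 6.92 and 16.9 units with IFN-β. Outside IFN-λ2 a single array exceeded 15 units, so that the probe entered the test only through the group where it is high, and its adjusted p of 0.0178 over control and 0.0238 over IFN-β is a description and no support for a difference. Set against the lowest measurable signal, its level with IFN-λ2 was at least 1.28-fold that of control and, relative to IFN-β, at least 1.04-fold higher. Both calls were lost with the block (0.0585 and 0.0574), no floor, a floor of 50 units, normexp or a variance trend, and without either control array (the first) or without IFN-λ2 replicate 3 or IFN-β replicate 1 or 2 (the second), with an adjusted p up to 0.0812 and 0.0686.

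The Slc6 family couples uptake to sodium and chloride. Of 11 tested probes, 2 were higher and 1 lower with IFN-λ2 than in controls, and none was called for IFN-β. Slc6a19 (B0AT1), which takes up neutral amino acids at the brush border, measured 173 and 186 units in controls, 279, 274 and 265 with IFN-λ2, and 189, 180 and 177 with IFN-β (chr13:73818718-73818777). The 3 IFN-λ2 arrays agreed closely and lay above the other 5, which overlapped. The log2 difference was 0.61 ± 0.07 over control (1.52-fold, adjusted p = 0.00190) and 0.58 ± 0.06 over IFN-β (adjusted p = 0.00235). Both were called in every fit without 1 array and in the 11 other alternatives of the limma fit. By the methods' t-test at its unadjusted threshold of 0.001, the difference over control did not pass. Its interval for IFN-β over control was -0.14 to 0.19. Tmem27, the renal partner of Slc6a19, was not well above background on any array.

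Slc6a12 (BGT1), which takes up betaine and γ-aminobutyric acid, measured 44.9 and 51.4 units in controls, 145, 145 and 98.3 with IFN-λ2, and 55.8, 32.9 and 46.9 with IFN-β (chr6:121315541-121315600). The IFN-λ2 arrays lay above the other 5, with replicate 3 lower than the other 2. The difference was 1.40 ± 0.26 over control (2.65-fold, adjusted p = 0.0119) and 1.53 ± 0.23 over IFN-β (2.88-fold, adjusted p = 0.00824). The first was lost without control replicate 2 or 3 (adjusted p up to 0.0683), and the second stayed called in every such fit. The neighbouring gene Slc6a13 (GAT2), with its probe at chr6:121287597-121287656, measured 26.6 and 36.1 units in controls and 48.1, 43.4 and 41.9 with IFN-λ2, a difference of 0.52 (-0.08 to 1.11, adjusted p = 0.202) that was not called.

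Slc6a8, the creatine carrier, measured 12452 and 9628 units in controls, 8381, 7785 and 7999 with IFN-λ2, and 10105, 11801 and 10937 with IFN-β. The IFN-λ2 arrays were the lowest. The difference was -0.44 ± 0.12 over control (adjusted p = 0.0495) and -0.44 ± 0.11 over IFN-β (0.0493), both next to the threshold. Both were lost with the block (0.0939 and 0.0847) and in 7 and 6 of the 8 fits without 1 array (adjusted p up to 0.185 and 0.132). The first stayed without control replicate 3, and the second without either control array. Slc6a6, the taurine carrier, varied within groups, from 5034 to 8476 units in controls, and gave -0.37 (-1.02 to 0.28) for IFN-λ2 and -0.14 (-0.79 to 0.51) for IFN-β over control.

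**Figure D4:**
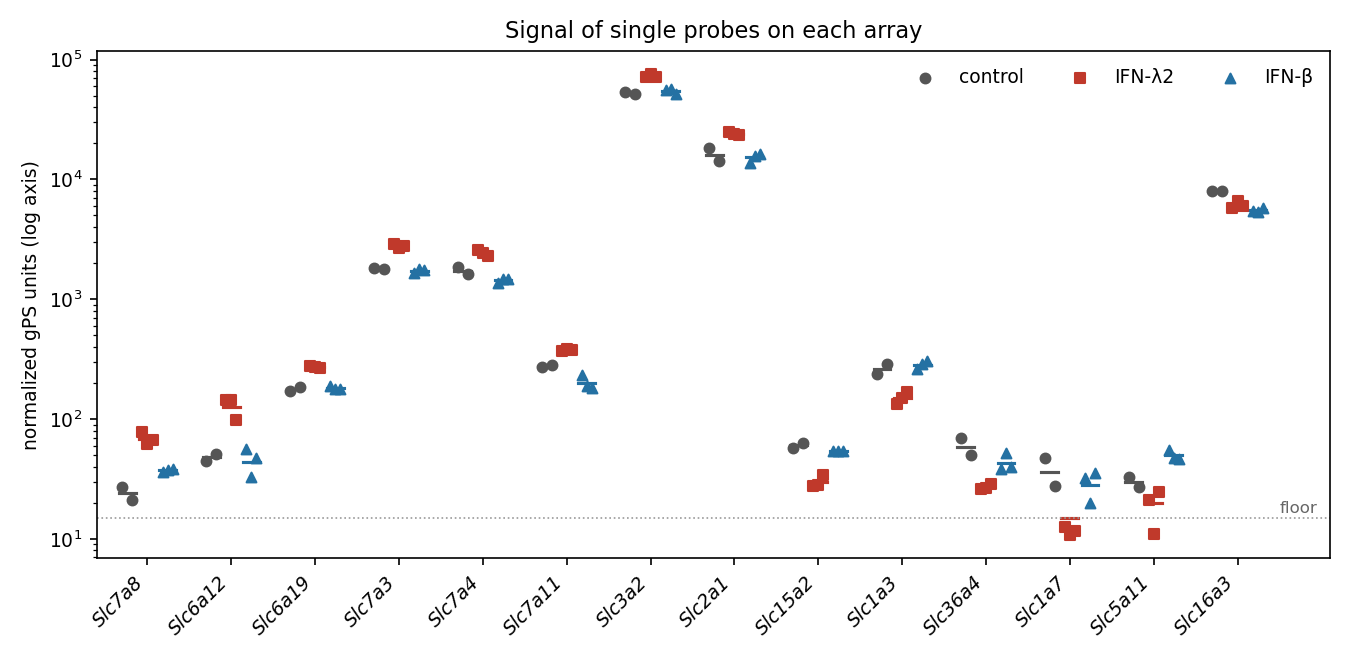
Signal in normalized gPS units on a log axis for 14 carriers on each of the 8 arrays, as circles for control, squares for IFN-λ2 and triangles for IFN-β. Short lines are group means on the log2 scale after the floor of 15 units, shown dotted. Slc7a8, Slc6a12, Slc6a19, Slc7a3, Slc7a4, Slc7a11, Slc3a2 and Slc2a1 have their IFN-λ2 arrays above all others, and Slc15a2, Slc1a3, Slc36a4, Slc1a7 and Slc5a11 below.

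Among 10 tested probes of the facilitative hexose carriers (Slc2), 1 was called higher with IFN-λ2, the same share as the 10% of all tested probes, and none with IFN-β (against 1.44% higher and 0.208% lower). It was Slc2a1 (GLUT1), the basal glucose carrier, with 18241 and 14280 units in controls, 24730, 24038 and 23393 with IFN-λ2, and 13836, 15725 and 16404 with IFN-β (chr4:118809864-118809923). All IFN-λ2 arrays lay above the rest, while control and IFN-β overlapped. The difference was 0.58 ± 0.12 over control (1.49-fold, adjusted p = 0.0206) and 0.65 ± 0.11 over IFN-β (1.57-fold, adjusted p = 0.0120). The first was lost without control replicate 3 or any IFN-λ2 array (adjusted p up to 0.0903) and with the block (0.0521), and the second without IFN-λ2 replicate 1 (0.0536). Hk2 and Hk1, the hexokinases that trap glucose after uptake, were higher with IFN-λ2 than in controls by 0.51 (adjusted p = 0.0149) and 0.37 (0.0260, 1 of 2 probes, and 0.0682 with the block). Ldha, a lactate dehydrogenase of glycolysis, was lower on 1 of 3 probes, at -0.49 (adjusted p = 0.0303, 0.0901 with the block), and gave -0.55 and -0.03 on the others without being called.

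The enterocyte carriers Slc2a2 and Slc2a5 (fructose) were low and not called. Slc2a2 ranged from 55.5 to 80.0 units over all arrays, with intervals of -0.18 to 0.53 for IFN-λ2 and -0.31 to 0.40 for IFN-β over control. For Slc2a5 the intervals were -0.25 to 0.93 and -0.47 to 0.70. Slc2a6, a carrier of intracellular membranes, measured 221 and 194 units in controls, 131, 98.5 and 81.8 with IFN-λ2, and 152, 85.3 and 149 with IFN-β. Its control arrays were above the others, but the differences of -1.03 (-1.73 to -0.33, adjusted p = 0.0540) and -0.74 (-1.44 to -0.04, adjusted p = 0.391) were not called. Lysosomal Slc2a8 gave -0.12 (-0.31 to 0.06) and -0.08 (-0.26 to 0.11).

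Among the sodium-coupled Slc5 carriers, 8 probes were tested and 2 were higher with IFN-λ2. With IFN-β none was called, and 7 of the 8 lay above 0 (median 0.27, between 0.15 and 0.24 with the deposited values, quantile normalization or normexp). Slc5a6, the carrier of biotin and pantothenate, had a control mean of 5491 ± 337 units (SD, n = 2) and measured 6805, 7263 and 7027 with IFN-λ2, and 6273, 7259 and 6589 with IFN-β. Both stimulated groups lay above the controls and overlapped with each other. The difference between IFN-λ2 and control was 0.36 ± 0.09 (adjusted p = 0.0321, lost without either control array, any IFN-λ2 array or IFN-β replicate 3, up to 0.150), and IFN-β over control gave 0.29 (0.08 to 0.49, adjusted p = 0.245). Slc5a8, the apical carrier of short-chain fatty acids, was dim, with 28.4 and 24.2 units in controls, 39.5, 33.1 and 42.8 with IFN-λ2, and 32.7, 31.9 and 35.7 with IFN-β. Its difference of 0.54 ± 0.13 over control (adjusted p = 0.0294) was lost with the block (0.0808) and without either control array or IFN-λ2 replicate 1 or 3. The call was also lost with a floor of 50 units, no filter on dim probes, normexp, a variance trend or the 2 groups alone.

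Of the myo-inositol carriers Slc5a11 (SMIT2) and Slc5a3 (SMIT1), Slc5a11 had lower signal under IFN-λ2 than under IFN-β, whereas the 2 probes of Slc5a3 did not give the same call. Slc5a11 measured 32.7 and 27.0 units in controls, 21.0, 11 and 24.5 with IFN-λ2 (1 of 3 arrays well above background), and 55.3, 47.7 and 46.5 with IFN-β (chr7:130416704-130416763). The groups were separate, with IFN-β highest and IFN-λ2 lowest. IFN-λ2 over IFN-β gave -1.33 ± 0.19 (at least 1.93-fold lower against the lowest signal measurable on its arrays, adjusted p = 0.00634), called in every fit without 1 array. Neither group was called against control (0.74, 0.25 to 1.24, with IFN-β and -0.59, -1.08 to -0.09, with IFN-λ2). With a floor of 50 units or normexp the call was lost. Of 2 Slc5a3 probes, the dimmer one gave -0.43 ± 0.10 (adjusted p = 0.0324, 0.0759 with the block) and the brighter one -0.07 (-0.36 to 0.22).

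Peptide carriers differed by member. Slc15a2 (PEPT2), the high-affinity proton-coupled peptide carrier, measured 57.8 and 63.2 units in controls, 27.8, 28.2 and 34.0 with IFN-λ2 (2 of 3 arrays well above background), and 53.8, 54.3 and 53.9 with IFN-β (chr16:36750603-36750662). The IFN-λ2 arrays were the lowest, and the IFN-β arrays lay just under the controls. The difference was -1.02 ± 0.10 over control (adjusted p = 0.00113) and -0.85 ± 0.09 over IFN-β (adjusted p = 0.00238), with the array not well above background at its own value. Counted against the lowest signal measurable on it, Slc15a2 was at least 1.92-fold lower than in controls and at least 1.71-fold lower than with IFN-β. Both calls stayed in every fit without 1 array and were lost with normexp background correction, the second also with a floor of 50 units. Slc15a4, the lysosomal carrier of histidine and peptides, measured 15550 and 14399 units in controls, 12351, 12012 and 12166 with IFN-λ2, and 13001, 13928 and 13922 with IFN-β. The order was control, IFN-β, IFN-λ2 with no overlap, but IFN-β and IFN-λ2 did not differ by the test (-0.16, -0.31 to -0.01, adjusted p = 0.172). The IFN-λ2 arrays differed from control by -0.30 ± 0.07 (1.23-fold lower, adjusted p = 0.0297), which stayed called in 1 of the 8 fits without 1 array (that without IFN-β replicate 1, with adjusted p from 0.0293 to 0.115 over the 8) and had an adjusted p of 0.0802 with the block.

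Seen as a list, the carriers of the lysosomal membrane had 8 tested probes for 5 genes. Of these probes, 7 lay below 0 for IFN-λ2 over control (median -0.15, 4 of 8 with normexp) and 7 for IFN-β over control (median -0.13). Slc15a4 with IFN-λ2 was the one call. Slc38a9, the arginine sensor of the mTORC1 pathway, gave -0.10 (-0.27 to 0.08) and -0.13 (-0.31 to 0.04) with its brightest probe. Slc36a1 (PAT1) gave -0.16 (-0.46 to 0.13) and -0.13 (-0.43 to 0.17). Irf5, a transcription factor of endosomal Toll-like receptor signalling that depends on Slc15a4, was higher with IFN-λ2 by 0.94 (adjusted p = 0.0210, 0.0629 with the block) and gave 0.77 with IFN-β (adjusted p = 0.179).

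The monocarboxylate carriers held the one call for IFN-β. Slc16a3 (MCT4), which exports lactate, has 2 probes that overlap on the transcript. The brighter one measured 8054 and 8033 units in controls, 5823, 6637 and 5991 with IFN-λ2, and 5467, 5378 and 5759 with IFN-β (chr11:120820023-120820082). The other measured 7791 and 7775, then 5307, 6418 and 5743, then 5180, 4955 and 5835. Both stimulated groups lay below the controls on both probes. IFN-β over control gave -0.54 ± 0.08 (1.45-fold lower, adjusted p = 0.0224) on the brighter probe and -0.55 ± 0.11 (adjusted p = 0.0717) on the other. IFN-λ2 over control gave -0.39 ± 0.08 (adjusted p = 0.0179) and -0.42 ± 0.11 (0.0363), and IFN-λ2 and IFN-β did not differ by the test (0.15, -0.02 to 0.32, adjusted p = 0.246). With the block, the adjusted p of the brighter probe was 0.133 for IFN-β and 0.0604 for IFN-λ2, and that of the other for IFN-λ2 was 0.0937. The call for IFN-β was lost without either control array, any IFN-β array or IFN-λ2 replicate 3 (up to 0.113), and that for IFN-λ2 without either control array or IFN-λ2 replicate 1 or 3 (up to 0.0734).

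Slc16a1 (MCT1), the carrier of butyrate and lactate, was dim, between 20.8 and 36.2 units, and gave -0.14 (-0.64 to 0.37) for IFN-λ2 and 0.10 (-0.41 to 0.60) for IFN-β over control. Bsg, the chaperone of Slc16a1 and Slc16a3, gave -0.09 and 0.03. Slc16a10 (TAT1), the basolateral carrier of aromatic amino acids, gave -0.27 (-0.46 to -0.08, adjusted p = 0.0639) and -0.13 (-0.33 to 0.06). Slc16a12, a creatine carrier, measured 4346, 3749 and 4200 units with IFN-λ2 and 3319, 2822 and 2867 with IFN-β, and differed between them by 0.45 ± 0.09 (adjusted p = 0.0246, lost without IFN-λ2 replicate 1 or 3 or IFN-β replicate 2 or 3, up to 0.0965), with controls at 3438 and 3614 units in between. The 2 probes of Slc16a13 went apart, 0.38 ± 0.10 (adjusted p = 0.0415) and -0.15 (-0.44 to 0.14) for IFN-λ2 over control, and the call was lost without either control array, any IFN-λ2 array or IFN-β replicate 3 (up to 0.166). Slc16a6, with -0.43 (-0.90 to 0.03, adjusted p = 0.175) over control and -0.44 (-0.85 to -0.02, 0.177) over IFN-β, was called in the fit with the block (0.0254 and 0.0360).

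Among the remaining amino acid carriers, the differences called were downward. Slc36a4 (PAT4) is a carrier of proline and tryptophan. It measured 69.3 and 49.8 units in controls, 26.3, 26.7 and 28.7 with IFN-λ2 (2 of 3 arrays well above background), and 38, 52.2 and 39.7 with IFN-β (chr9:15542793-15542852). The IFN-λ2 arrays lay below the others, and IFN-β and control overlapped. IFN-λ2 over control gave -1.11 ± 0.18 (at least 2.01-fold lower, adjusted p = 0.00753), called in every fit without 1 array and lost with a floor of 50 units or normexp. IFN-λ2 over IFN-β gave -0.65 ± 0.16 (at least 1.47-fold lower, adjusted p = 0.0465, 0.0569 with the block), which was lost without any one of the 6 stimulated arrays (up to 0.148). This second call was also lost with no floor, no filter on dim probes, quantile normalization or a variance trend. With a floor of 50 units its difference was -0.02, and with normexp it turned to 0.13.

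The Slc38 family holds sodium-coupled carriers of glutamine and other neutral amino acids. Some genes count more than once here, since the 7 tested genes had 11 tested probes. Of these, 10 lay below 0 for IFN-λ2 over control (median -0.16, 4 of 11 with normexp) and all 11 for IFN-β over control (median -0.25, with all 11 below 0 under the deposited values, quantile normalization and normexp too), against medians of 0.0008 and 0.02 over all probes. Called lower were 3 with IFN-λ2 and none with IFN-β. Slc38a1 (SNAT1) measured, on its brightest probe, 4508 and 3789 units in controls, 3225, 2983 and 3106 with IFN-λ2, and 2869, 3006 and 3155 with IFN-β. Both stimulated groups were below the controls. IFN-λ2 over control gave -0.41 ± 0.10 (1.33-fold lower, adjusted p = 0.0264), and IFN-β over control gave -0.46 (-0.68 to -0.23, adjusted p = 0.0904). Its other probes gave -0.45 (at least 1.36-fold lower, not well above background on 1 IFN-λ2 array, adjusted p = 0.0330) and -0.11 (-0.30 to 0.09) with IFN-λ2. Both calls were lost with the block (0.0793 and 0.0782), and that of the brightest probe without control replicate 2 or any IFN-λ2 array (up to 0.104). Slc38a3 (SNAT3), a basolateral glutamine carrier, measured 35.3 and 36.3 units in controls, 23.4, 25.4 and 24.9 with IFN-λ2, and 30.7, 26.8 and 24.0 with IFN-β. On IFN-λ2 replicate 2 and on 1 IFN-β array it was not well above background. IFN-λ2 over control gave -0.54 ± 0.11 with that array at its own value, at least 1.33-fold lower against the lowest signal measurable there (adjusted p = 0.0167), a call lost with a floor of 50 units, normexp or a variance trend, and without either control array or IFN-λ2 replicate 1 (up to 0.0833). With normexp its difference turned to 0.13 and was not called.

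By the side of the membrane, the apical list had 9 tested probes, of which 2 (Slc6a19 and Slc5a8) were called higher with IFN-λ2 than in controls and none lower (median 0.34), and none was called with IFN-β (median 0.00). The basolateral list had 10 tested probes, of which 3 (Slc2a1, Slc3a2 and Slc7a8) were higher with IFN-λ2 and 3 (both Slc16a3 probes and Slc38a3) lower (median -0.15, but 0.09 with normexp), and 1 was lower with IFN-β. Only 3 of the 15 apical probes were well above background on all arrays, against 9 of 10 basolateral probes.

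A list of partners and regulators of these carriers held 44 genes on the array and 52 tested probes. With IFN-λ2, 10 were higher (against 10% of all tested probes) and 2 (Ddit3 and Ldha) lower than control (against 8.55%), 4 of the higher ones by 2-fold (against 2.67%), while 1 was called higher with IFN-β (against 1.44%). Between the interferons, 9 were higher with IFN-λ2 (against 5.53%) and none lower (against 5.68%). Lct, the lactase of the brush border, was higher by 1.38 with IFN-λ2 (adjusted p = 0.000942) and by 1.03 over IFN-β (0.00316). Sgk1, a kinase that raises the surface level of several carriers, was higher by 1.04 (adjusted p = 0.000517) over control and by 0.68 (0.00320) over IFN-β. Ace and Pdzk1, a peptidase and a scaffold of the brush border, were higher over control by 0.66 (adjusted p = 0.00123) and, on 1 of 2 probes, 0.49 (0.00705). Of the amino acid response, Asns rose by 0.39 (adjusted p = 0.0265, just over 0.05 with the block), Ddit3 was lower at -0.41 (0.0366, 0.0727 with the block) and the 2 probes of Atf4 gave 0.22 and 0.30 without being called. Chac1, Trib3 and Sesn2, further genes of this response, gave 0.34 (adjusted p = 0.0515), 0.30 (0.112) and -0.25 (0.664) over control, none of them called. Over IFN-β, Chac1 was higher by 0.43 (adjusted p = 0.0222, 0.0702 with the block) and Trib3 by 0.48 (0.0248, 0.0533 with the block), while Asns gave 0.25 (0.0971). The one call with IFN-β was Eif2ak2, an IFN-stimulated kinase, which was higher by 2.12 with IFN-λ2 and 2.08 with IFN-β.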

How the data were processed

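Cy3-labelled cRNA of 8 samples was hybridized by the authors to Agilent 1-colour whole mouse genome arrays, scanned and extracted with Feature Extraction 10.7.3.1. The labels name Trizol and the methods a column kit for the RNA. The deposited scanner files hold processed intensity, already background-subtracted, and the deposited value table holds the authors' intensity values after scaling. Following the methods, features that were flagged, outside 1.42 interquartile ranges of their on-chip copies or with a pixel coefficient of variation above 0.5 were left out, copies were averaged geometrically, each array was scaled to a 75th percentile of 1500 (factors 0.691 to 0.769) and values under 15 units were set to 15. Of 491 carrier values above 30 units, 490 lay within 0.5% of the deposited table times a factor per array (0.909 to 0.928). The number of arrays limits the precision.

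Log2 values of probes above 15 units on at least 2 arrays were fitted as 3 group means on all 8 arrays with limma 3.58.1 (lmFit, eBayes, R 4.3.3), with Benjamini-Hochberg adjustment over all 25972 tested probes. The script was tested on simulated data. Tables were handled in Python 3.11.15 (numpy 2.4.6, pandas 2.3.3). Where a probe was not well above background on arrays of the dimmer group, the fold is given as a bound (at least N-fold), with those arrays set to their lowest signal well above background if the probe was under it. Probe coordinates are those of the array design (mm9), for which no annotation was used here; 130 of 135 probes matched a RefSeq gene table under the same symbol, and 1 further probe, matched only by accession, was not taken.

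The carriers and all lists were chosen with earlier results of these data known. Named with values were genes whose brightest tested probe was called at 2-fold or more, a fixed list of textbook carriers, and genes whose probes disagreed; others are marked as chosen after their values were seen. Replicate numbers coincide with the 3 slides. Deviations from the group means of same-numbered IFN-λ2 and IFN-β arrays correlated across probes with r = 0.178, 0.255 and 0.297, so the numbers pair these groups. For control and IFN-λ2 the values were 0.00121 and -0.00965, and for control and IFN-β 0.101 and -0.0568. Alternatives were other floors, filters, background correction, normalization, feature exclusion, variance prior, the deposited table, the slide as a block, 2 groups alone, genes for probes, no fold threshold, the methods' t-test, and each array left out.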

Additional observations from a re-analysis of the deposited data

How the results depend on the processing

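With 2 or 3 arrays a group, counts of called carriers moved with the processing, and the cause was not tested. Normexp background correction moved the median of all probes to 0.110 for IFN-λ2 over control and 0.0898 over IFN-β. The tally that follows covers the fixed list and genes called by their brightest tested probe, and so leaves out Slc16a6. Of 2574 gene differences under an alternative, 2339 kept their side of the threshold, 223 fell short of it, 10 passed it and 2 called ones turned, both with normexp (a change of sign in a difference called under neither setting, as for Slc36a1 with normexp, is not counted as a turn): Slc36a4 over IFN-β (0.13) and Slc38a3 over control (0.13). No alternative gave a carrier higher with IFN-β than control. For IFN-λ2 over control, the 2 probes higher by 2-fold became 1 with a floor of 50, 0 with normexp, 0 with the methods' t-test at p under 0.001 or adjusted, 13 with no fold threshold, and 1 to 2 without 1 array. The 3 lower ones became 0 with a floor of 50, 0 with normexp, 1 with the replicate block, 0 with either t-test, 11 with no fold threshold, and 1 to 4 without 1 array. By adjusted p alone, the 13 higher probes became 7 with normexp, 2 and 4 with the t-test unadjusted and adjusted, and 4 to 13 without 1 array; the 11 lower ones became 7 with no filter, 0 with normexp, 5 with the replicate block, 7 with 2 groups alone, 0 and 1 with the t-tests, and 3 to 11 without 1 array. For IFN-β over control, no probe was lower by 2-fold and 1 with no fold threshold; that 1 became 2 with a floor of 50, with the filter on background or with quantile normalization, 3 with a variance trend, 0 with normexp, the replicate block, 2 groups alone or the adjusted t-test, and 0 to 1 without 1 array. For IFN-λ2 over IFN-β, the 1 higher by 2-fold became 0 with either t-test, 11 with no fold threshold and 1 to 2 without 1 array, and the 1 lower became 2 with no floor, 0 with a floor of 50, normexp or either t-test, 6 with no fold threshold and 1 to 2 without 1 array. By adjusted p alone, the 11 higher became 4 with the unadjusted t-test and 8 to 11 without 1 array; the 6 lower became 2 with a floor of 50, 3 with no filter, 0 with normexp, 1 and 2 with the t-tests, and 3 to 5 without 1 array. With the slides paired, 9 and 10 probes were higher than control and IFN-β by adjusted p. Signal near background limits Slc1a2, Slc1a7, Slc5a8, Slc5a11, Slc15a2, Slc36a4, Slc38a3 and 1 Slc38a1 probe. Control arrays were also dim for Slc7a8.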
